A study of Caenorhabditis elegans with 6 samples.

Results

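The smaller piRNA cluster of *C. elegans* was examined for histone marks in muscle. It was taken as the 1 kb windows of chromosome IV (ce10) whose midpoint lies between 4.5 Mb and 7 Mb, a rule that uses position alone. This gave 2500 windows of 100293 in the genome-wide table, of which 2481 held at least 1 read. The interval was set against the windows from 7 Mb to 13 Mb of the same chromosome, 5961 of which held reads. The positions of single piRNA loci on this assembly were not used here, so the windows describe the interval as a whole and not its piRNA genes. In the RefSeq annotation of the later assembly WBcel235, 14714 of 15363 piRNA genes (95.8%) are on chromosome IV.

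PIWI-interacting RNAs (piRNAs) are small RNAs of the germ line that guide the Argonaute protein PRG-1 to foreign transcripts. In *C. elegans* most of them are encoded on chromosome IV as very short transcription units, packed into broad clusters between and within other genes. They are made in germ cells, and muscle is a somatic tissue. H3K9me2 and H3K9me3 are methylation marks of silent chromatin that are most frequent over repeats and the arms of autosomes. MET-2 is a histone methyltransferase that places methyl groups on H3K9. H3K27ac is a mark of active promoters and enhancers.

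ChIC-seq cuts DNA beside an antibody-bound histone mark with protein A fused to micrococcal nuclease (MNase) and counts the released fragments. The cells were sorted body wall muscle of L3 larvae grown at 20 °C, with 1 library per group. One group of cells carried *met-2*(n4256) III and gave an H3K27ac library and an MNase control without antibody. The other was N2 (Bristol), the wild type (WT), which gave H3K9me3, H3K9me2 and H3K27ac libraries and its own MNase control. Per the study's methods the sort was for red fluorescence driven by the *myo-3* promoter, which is active in body wall muscle. The labels of these libraries name no such reporter. For ChIC-seq the methods also describe sorting of fixed cells with Hoechst as the marker. Markers of muscle could not be examined because genes were not assigned to windows, and H3K9me libraries of the mutant were not analysed here. The libraries held between 2475550 reads (*met-2* MNase control) and 28519008 reads (WT H3K9me3). Because no group had a replicate, the error between replicates is not known and no test was made. Where a mark or a genotype differs below, the difference is between these libraries.

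The cluster held 573132 reads of *met-2* H3K27ac and 59583 of the *met-2* MNase control. In WT it held 684991 reads of H3K9me3, 544766 of H3K9me2, 324217 of H3K27ac and 217297 of the MNase control. The median window held 227 reads of *met-2* H3K27ac, 21 of the *met-2* control, 266 of H3K9me3, 187 of H3K9me2, 123 of WT H3K27ac and 66 of the WT control. The *met-2* control was thus the library that limits the precision of a single window.

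A total of 19 windows of the cluster had no read in any library. They were in short groups, 3 windows at IV 4717080 to 4720079, 2 at IV 4921079 to 4923078, 3 at IV 4924079 to 4927078 and 11 scattered between IV 5218076 and 5249075. A further 89 of the 2481 windows averaged under 20 scaled reads per library, where scaled reads are counts divided by the library total and brought to the average total. Of these, 15 were between 5.2 Mb and 5.3 Mb, 21 between 6.6 Mb and 6.7 Mb and 22 between 6.7 Mb and 6.8 Mb. How multiply mapping reads were treated is not given in the sources used here, so windows over repeated sequence are uncertain.

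All 6 libraries had fewer reads per kb in the cluster than between 7 Mb and 13 Mb, and H3K9me3 was the least reduced of them. H3K9me3 averaged 164.4 scaled reads per kb in the cluster against 170.7 in the comparison interval, a ratio of 0.963 (exact 95% interval 0.960 to 0.966). H3K9me2 averaged 156.3 against 176.3, a ratio of 0.886 (0.884 to 0.889). For H3K27ac the ratio was 0.894 (0.891 to 0.897) in *met-2* and 0.848 (0.845 to 0.852) in WT. The MNase controls were also lower in the cluster, with a ratio of 0.922 (0.914 to 0.931) in *met-2* and 0.898 (0.894 to 0.902) in WT. The H3K9me3 ratio therefore exceeded those of both controls, and the ratios of H3K9me2 and WT H3K27ac were below both. The interval of *met-2* H3K27ac overlapped that of the WT control. These intervals cover counting error only.

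Along the chromosome, blocks of 500 kb were compared. The median window of the 5 cluster blocks held 124.6 to 138.5 scaled reads of H3K9me2, all below the lowest of the 12 comparison blocks (143.1). For H3K9me3 the cluster blocks held 150.02 to 167.0 scaled reads, against 153.6 to 176.5 in the comparison blocks, so these ranges overlapped. For H3K27ac the cluster blocks held 151.8 to 173.5 scaled reads in *met-2* and 139.2 to 164.1 in WT. The comparison blocks held 163.4 to 202.4 in *met-2* and 151.6 to 205.1 in WT.

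**Figure D1:**
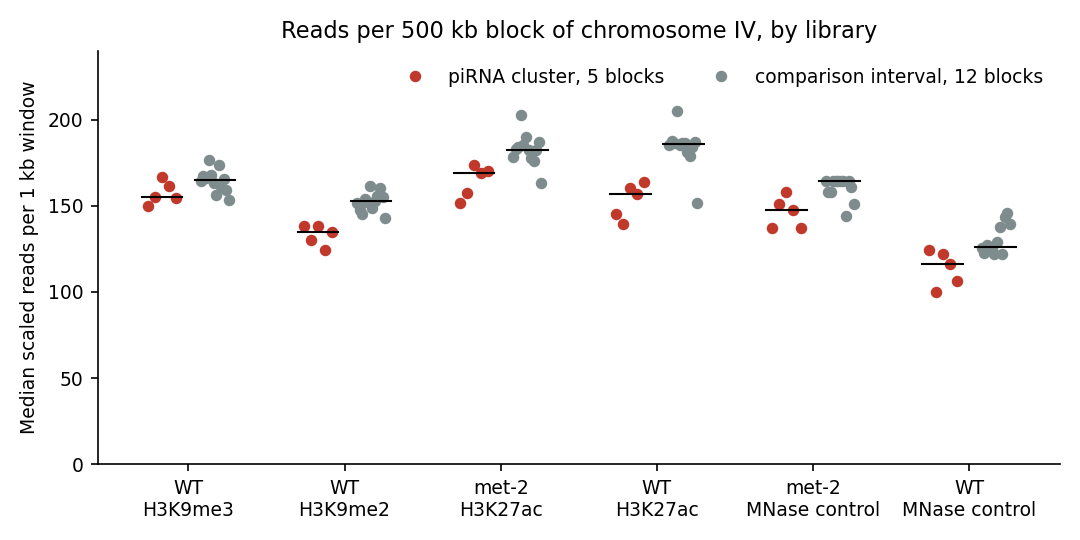
Median scaled reads per 1 kb window in blocks of 500 kb of chromosome IV (y axis), for each of the 6 libraries (x axis). Red points are the 5 blocks of the piRNA cluster, grey points the 12 blocks of the comparison interval from 7 Mb to 13 Mb, and black lines their medians. H3K9me2 is the library in which the ranges are apart (124.6 to 138.5 against 143.1 to 161.6), and the controls are lower in the cluster as well.

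The marks were then expressed as log2 enrichment over the MNase control of the same genotype, after adding a pseudocount of 8, and a window above 0.5 was called enriched. For H3K9me3, 1200 windows of the cluster (48.4%) were enriched, compared with 42.4% between 7 Mb and 13 Mb and with 42.7% genome-wide. The median enrichment was 0.46 in the cluster and 0.32 in the comparison interval, a difference of 0.14 (0.072 to 0.21). For H3K9me2, 918 windows (37.0%) were enriched, against 37.9% in the comparison interval and 36.1% of all windows, with medians of 0.22 and 0.24. The H3K9me2 medians differed by -0.02 (-0.095 to 0.036), an interval that includes 0.

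H3K27ac was enriched in 721 windows of the cluster in *met-2* (29.1%), against 30.9% in the comparison interval and 31.0% of all windows. In WT it was enriched in 1106 windows (44.6%), against 47.6% in the comparison interval and 41.8% of all windows. The WT median of 0.37 was below the 0.45 of the comparison interval by 0.08 (a difference of -0.16 to -0.017), while it was above the 0.30 of all windows. Over the *met-2* control the WT H3K27ac median of the cluster was 0.05, against 0.17 in the comparison interval and 0.10 over all windows. Its 162.4 scaled reads per kb were also below the 170.7 of the genome. WT H3K27ac in the cluster was therefore below the interval to its right with either control, while its position relative to the genome turned with the control.

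These shares depended on the control. Over the *met-2* control, H3K9me3 was above 0.5 in 736 windows (29.7%), against 25.9% in the comparison interval and 29.9% of all windows, and its median was 0.08 against 0.02 and 0.10. The difference from the comparison interval was then 0.06 (-0.0012 to 0.13), an interval that includes 0. Windows above 0.5 over both controls numbered 444 for H3K9me3 (17.9%), against 14.2% in the comparison interval and 16.2% of all windows. The corresponding count for H3K9me2 was 337 (13.6%), against 13.8% and 14.4%, and for WT H3K27ac 367 (14.8%), against 18.3% and 15.7%. For *met-2* H3K27ac it was 438 (17.7%), against 17.7% and 17.1%, and 303 windows (12.2%) were enriched over both controls in both genotypes, against 14.1% and 12.4%. Against the genome the H3K9me3 share was thus above the background over the WT control and slightly below it over the *met-2* control. The enrichment of a window over the WT control and that over the *met-2* control had a Spearman correlation of 0.252 for H3K9me3 across the 2481 windows, which share the H3K9me3 library.

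**Figure D2:**
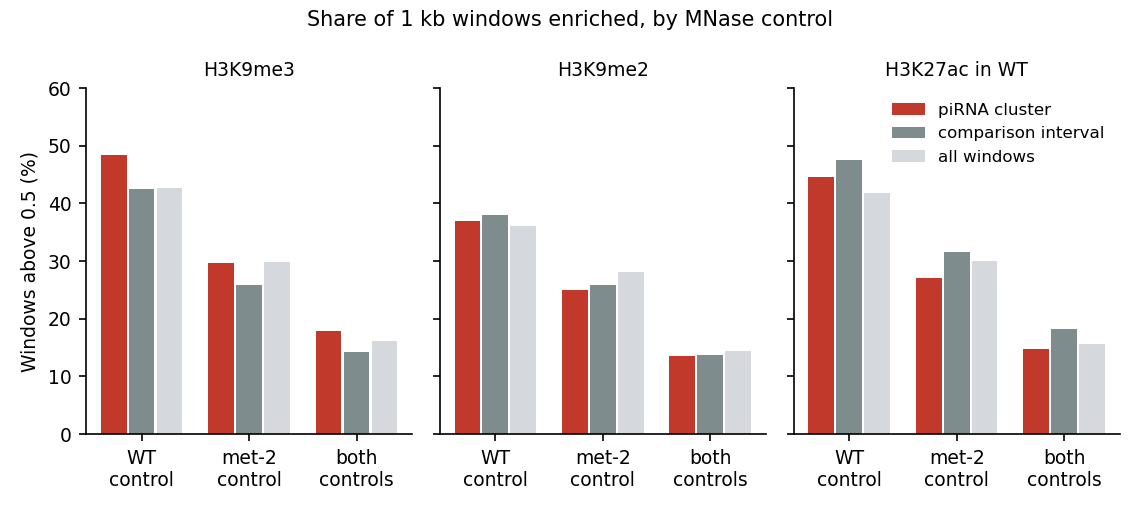
Percentage of 1 kb windows above 0.5 on the log2 scale (y axis) for H3K9me3, H3K9me2 and H3K27ac in WT, over the WT MNase control, over the *met-2* MNase control and over both (x axis). Bars are the piRNA cluster (red), the comparison interval from 7 Mb to 13 Mb (dark grey) and all windows (light grey). H3K9me3 in the cluster is above the genome over the WT control (48.4% against 42.7%) and level with it over the *met-2* control (29.7% against 29.9%).

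The controls themselves differed over the cluster. The *met-2* control was above the WT control by more than 0.5 in 1050 windows (42.3%), against 39.6% in the comparison interval and 37.9% of all windows. The median of this difference was 0.29 in the cluster, 0.24 in the comparison interval and 0.17 over all windows. In blocks of 100 kb it ran between -0.06 at 4.7 to 4.8 Mb and 0.67 at 6.8 to 6.9 Mb. H3K9me3 enrichment and the difference between controls had a Spearman correlation of 0.714 over the windows, and both contain the WT control.

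A ratio with no control in it was therefore taken between marks of the same genotype. This measure, and that of H3K9me2 over H3K9me3, were chosen after the values above were seen. H3K9me3 exceeded WT H3K27ac by more than 0.5 in scaled reads in 468 windows of the cluster (18.9%), against 6.88% between 7 Mb and 13 Mb and 17.2% of all windows. H3K27ac exceeded H3K9me3 in 281 windows (11.3%), against 18.6% and 15.4%. The median log2 ratio of H3K9me3 over H3K27ac was 0.05 in the cluster and -0.14 in the comparison interval, a difference of 0.19 (0.15 to 0.23). The cluster lay between the 2 intervals to its right, since the median was 0.45 and the share 47.1% to the right of 13 Mb. To its left, from 0 to 4.5 Mb, the median was 0.01 and the share 13.2%.

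H3K9me2 was low relative to H3K9me3 in the cluster. Its scaled reads were below those of H3K9me3 by more than 0.5 in 888 windows (35.8%), against 25.2% in the comparison interval and 28.8% of all windows, and above them in 372 (14.99%), against 17.2% and 16.9%. The median ratio of H3K9me2 over H3K9me3 was -0.26 in the cluster and -0.10 in the comparison interval, a difference of -0.15 (-0.21 to -0.10). Of the 5 blocks of 500 kb in the cluster, 4 were below all 12 comparison blocks in this ratio. To the right of 13 Mb the median was lower still, at -0.45.

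**Figure D3:**
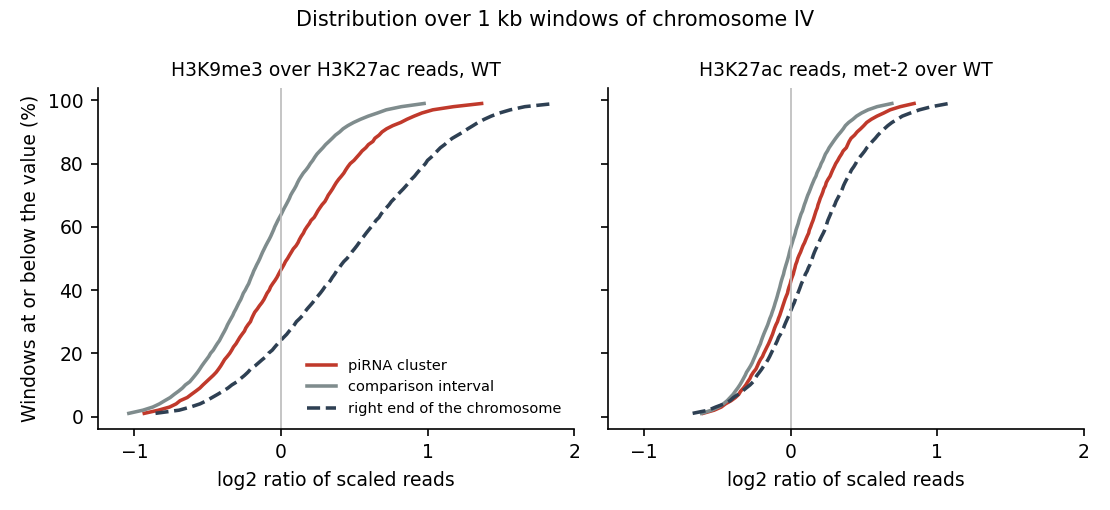
Percentage of 1 kb windows at or below each value (y axis) of the log2 ratio of scaled reads (x axis), for H3K9me3 over H3K27ac in WT (left) and for H3K27ac in *met-2* over WT (right). Red is the piRNA cluster, grey the comparison interval from 7 Mb to 13 Mb and the broken line the chromosome to the right of 13 Mb. The median of the cluster lies between those of the other intervals in both panels, with values of 0.05 against -0.14 and 0.45 on the left and of 0.05 against -0.02 and 0.15 on the right.

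Overlap between the marks was next examined. Of the 918 H3K9me2-enriched windows in the cluster, 732 were also H3K9me3-enriched, which is 79.7% of the H3K9me2 windows and 61.0% of the H3K9me3 windows. Both marks were divided by the same control here. With H3K9me2 over the *met-2* control and H3K9me3 over the WT control, 262 of 618 H3K9me2 windows (42.4%, Wilson 95% interval 38.6% to 46.3%) carried H3K9me3, which 48.4% of the windows of the cluster did. These 618 windows were 24.9% of the cluster, against 28.2% of all windows. With the controls exchanged between the marks, 304 of 918 H3K9me2 windows (33.1%, 30.1% to 36.2%) carried H3K9me3, which 29.7% of the cluster did. Over all windows these shares were 32.6% and 29.9%. Whether the overlap was below or above the background thus turned with the assignment of the controls. Over both controls, 151 windows carried both marks, 44.8% of the 337 H3K9me2 windows and 34.0% of the 444 H3K9me3 windows. Over all windows the shares of H3K9me2 windows were near those of the cluster, at 76.2% over the WT control and 46.2% over both controls. With H3K9me2 over the *met-2* control and H3K9me3 over the WT control the share was 37.7%. In that assignment it was thus also below the H3K9me3 share of all windows (42.7%). The shares of all H3K9me3 windows were 64.4% over the WT control and 41.1% over both controls. Windows with both marks were 29.5% of the cluster over the WT control, against 29.0% of the comparison interval and 27.5% of all windows. Over both controls they were 6.09% of the cluster, 6.09% of the comparison interval and 6.67% of all windows.

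The share of H3K9me3 windows that carried WT H3K27ac was near that of the genome in the cluster and higher between 7 Mb and 13 Mb. Over the WT control, 933 of 1200 did so in the cluster (77.8%), against 88.4% in the comparison interval and 78.3% of all H3K9me3 windows, and windows with both were 37.6% of the cluster and 33.5% of the genome. Of the 444 windows enriched for H3K9me3 over both controls, 229 were also enriched for WT H3K27ac over both controls (51.6%, Wilson 95% interval 46.9% to 56.2%). Between 7 Mb and 13 Mb this was the case for 604 of 844 (71.6%, 68.4% to 74.5%), right of 13 Mb for 31.3% and over all windows for 56.2%. Conversely, 62.4% of the 367 H3K27ac windows of the cluster were H3K9me3-enriched, against 55.5% of 1089 in the comparison interval and 58.2% over all windows. Windows enriched for both over both controls made up 9.23% of the cluster, 10.1% of the comparison interval and 9.11% of all windows. WT H3K27ac itself was enriched over the WT control in 44.6% of the cluster, 47.6% of the comparison interval and 41.8% of all windows. Over both controls these shares were 14.8%, 18.3% and 15.7%. H3K9me3 and H3K27ac were divided by the same controls throughout, which can raise their overlap, and separate controls were not used for this pair.

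Within the cluster the marks varied in blocks of 100 kb. Median H3K9me3 enrichment over the WT control ran between 0.05 at 4.7 to 4.8 Mb and 0.88 at 6.2 to 6.3 Mb and was above 0 in 25 of 25 blocks. Against the *met-2* control it ran between -0.09 at 6 to 6.1 Mb and 0.43 at 6.7 to 6.8 Mb and was above 0 in 18 of 25. The medians of all windows were themselves above 0, at 0.32 over the WT control and 0.10 over the *met-2* control. The 3 leftmost blocks, from 4.5 Mb to 4.8 Mb, had medians of 0.05, 0.13 and 0.05, and the next block had 0.52. With the *met-2* control these 4 blocks had -0.02, -0.06, 0.21 and 0.14, and the block at 6.2 to 6.3 Mb had 0.16, so neither the step nor the peak was seen there. Over the 25 blocks, H3K9me3 over the WT control had a Spearman correlation of 0.804 with the difference between the controls and of 0.149 with H3K9me3 over the *met-2* control. H3K9me2 ran between -0.05 at 4.5 to 4.6 Mb and 0.48 at 4.9 to 5 Mb. H3K27ac ran between -0.13 at 6.2 to 6.3 Mb and 0.35 at 6.7 to 6.8 Mb in *met-2*, and between -0.05 at 4.5 to 4.6 Mb and 0.74 at 6.8 to 6.9 Mb in WT. Over the *met-2* control, H3K9me2 was at -0.12 at 4.9 to 5 Mb and was highest at 4.7 to 4.8 Mb (0.24). WT H3K27ac at 6.8 to 6.9 Mb was at 0.09 over that control, so neither peak was seen there. The H3K9me3 over H3K27ac ratio was lowest at 4.6 to 4.7 Mb (-0.32) and highest at 4.9 to 5 Mb (0.55). That was also the block with the highest H3K9me2 enrichment over the WT control, though not over the *met-2* control.

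The borders of the interval were given by the rule and not by the data. The first block inside the left border had a median H3K9me3 enrichment of 0.05 and a WT H3K27ac enrichment of -0.05, and the block just outside had -0.06 and 0.07. At the right border the last block inside had 0.60 for H3K9me3 and 0.67 for WT H3K27ac, and the first block outside had 0.28 and 0.41. These values are over the WT control. With the *met-2* control they were 0.08 and 0.20 inside the right border and 0.004 and 0.18 outside it. At the left border they were -0.02 and 0.01 inside and 0.05 and 0.21 outside. Median scaled reads of WT H3K27ac were 178.4 inside the right border and 185.8 outside it, so the H3K27ac step there depended on the control.

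In the 500 kb blocks, median H3K9me3 enrichment was 0.30, 0.50, 0.46, 0.49 and 0.53 from left to right. The last 4 were above all 12 comparison blocks, which ranged over 0.16 to 0.44, and the leftmost was not. Over the *met-2* control, 2 of the 5 blocks were above all 12 and 5 of 5 above their median. For the H3K9me3 over H3K27ac ratio, again 2 of 5 were above all 12 and 5 of 5 above their median.

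**Figure D4:**
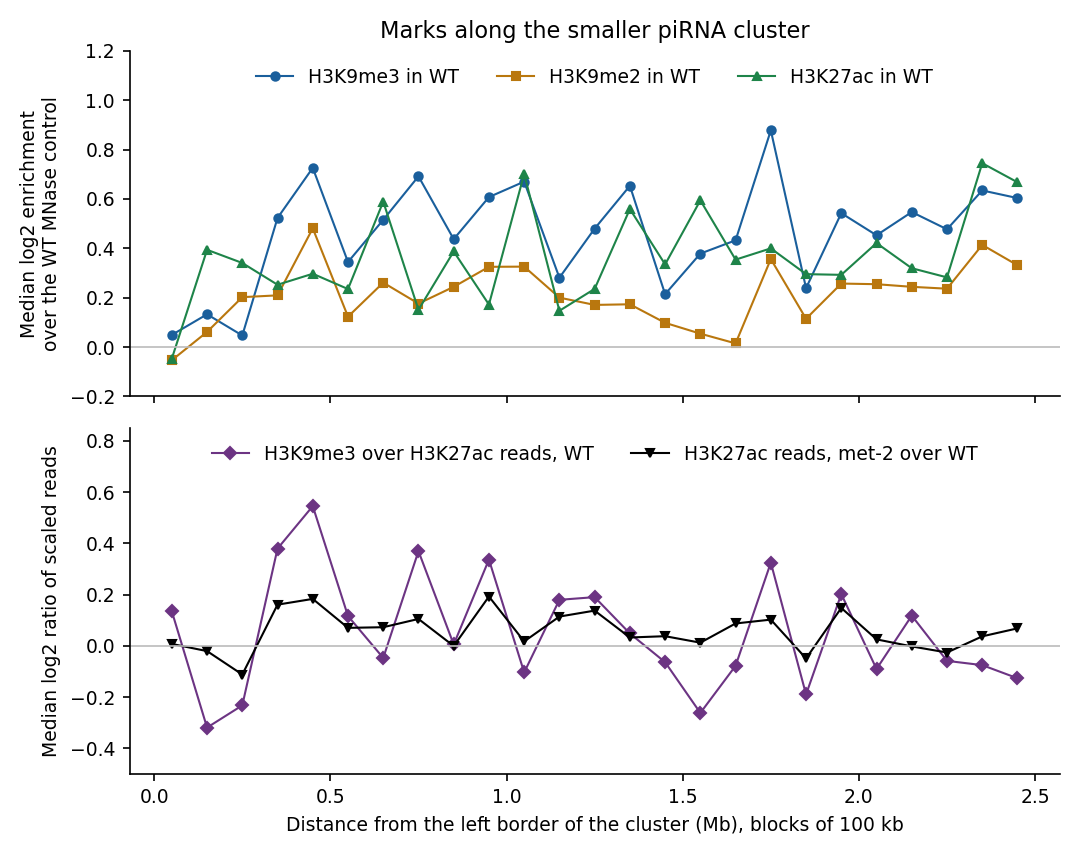
Median values of 1 kb windows in blocks of 100 kb (y axis, log2) by distance from the left border of the cluster in Mb (x axis). The upper panel gives enrichment of H3K9me3, H3K9me2 and H3K27ac over the WT MNase control, and the lower panel gives ratios of scaled reads, H3K9me3 over H3K27ac in WT and H3K27ac in *met-2* over WT. H3K9me3 is lowest in the 3 leftmost blocks (0.05 to 0.13) and peaks at 0.88. Both ratios in the lower panel are below 0 in the blocks that start 0.1, 0.2, 1.8 and 2.2 Mb from the border.

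Consecutive windows were then joined. H3K9me3 formed 61 runs of 5 or more enriched windows in the cluster, or 24.4 per Mb, against 15.2 per Mb between 7 Mb and 13 Mb. WT H3K27ac formed 42 (16.8 against 20.8 per Mb) and H3K9me2 formed 14 (5.60 against 7.83 per Mb). No rate of runs over all windows was computed, here or below. Single H3K9me3-enriched windows were 48.4% of the cluster, 42.4% of the comparison interval and 42.7% of all windows. The longest H3K9me3 run covered 14 windows at IV 5415074 to 5429073, with 2902 reads of *met-2* H3K27ac and 320 of the *met-2* control, and in WT 4193 reads of H3K9me3, 3074 of H3K9me2, 1356 of H3K27ac and 616 of the control. The next were 13 windows at IV 6493064 to 6506063 and 11 windows at IV 5870070 to 5881069. The longest run of WT H3K27ac covered 13 windows at IV 6830061 to 6843060, and the longest runs of H3K9me2 covered 7.

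Runs were nearly absent once both controls were required. H3K9me3 formed 4 runs of 5 or more windows over both controls, or 1.60 against 0.833 per Mb in the comparison interval, whereas H3K9me2 and WT H3K27ac formed 0. The longest H3K9me3 run, of 8 windows at IV 6722062 to 6730061, held 14 reads of the *met-2* control, and 529 of H3K9me3 and 45 of the control in WT. Another, at IV 6691062 to 6696061, held 71 reads of H3K9me3 and 0 and 2 reads of the *met-2* and WT controls, and both lie in the stretch of low counts described below. In all these measures adjacent windows of the cluster were only weakly alike, with Spearman correlations between neighbours of 0.220 for H3K9me3 enrichment, 0.114 for H3K9me2 and 0.173 for WT H3K27ac.

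Where H3K9me3 exceeded H3K27ac reads, 10 runs of 5 or more windows were found, or 4.00 per Mb against 1.00 per Mb in the comparison interval. Single windows of this kind were rare in the comparison interval (6.88%), while the cluster (18.9%) was near all windows (17.2%). Of these 10 runs, 4 fell between 6.6 Mb and 6.8 Mb, a stretch that was singled out after its values were seen. The longest covered 11 windows at IV 6669062 to 6680061, with 679 reads of *met-2* H3K27ac and 94 of the *met-2* control, and in WT 1743 reads of H3K9me3, 1131 of H3K9me2, 402 of H3K27ac and 406 of the control. The run of 9 windows at IV 6709062 to 6718061 had 64 reads of *met-2* H3K27ac and 10 of the *met-2* control, against 327 reads of H3K9me3, 86 of H3K9me2, 32 of H3K27ac and 41 of the control in WT. H3K9me3 had the most reads in both runs, also after scaling.

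The stretch from 6.6 Mb to 6.8 Mb held windows of very low counts beside windows of usual counts. Of its 200 windows, 43 averaged under 20 scaled reads (21.5%), against 46 of 2281 in the rest of the cluster (2.02%). In 30 of those 43 windows H3K9me3 exceeded H3K27ac by more than 0.5. Over the whole stretch 51 windows did so (25.5%), against 18.3% in the rest of the cluster, while the median ratio was 0.02 against 0.05. A total of 55 windows of the stretch (27.5%) were enriched for H3K9me3 over both controls, against 17.1% in the rest of the cluster. At such counts the ratios rest on few reads and on the pseudocount.

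**Figure D5:**
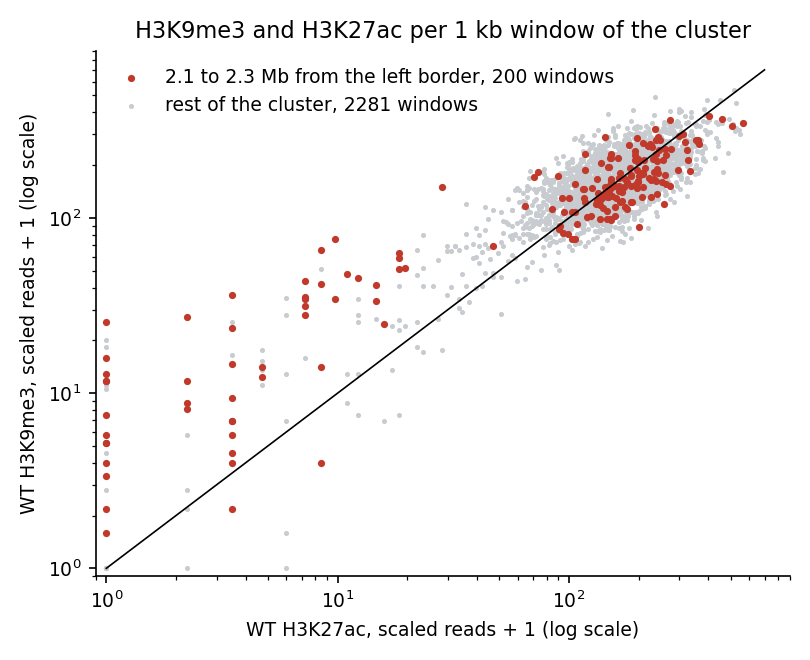
Scaled reads plus 1 of WT H3K9me3 (y axis, log scale) and WT H3K27ac (x axis, log scale) in each 1 kb window of the cluster with reads. Red points are the 200 windows from 6.6 Mb to 6.8 Mb, which lie 2.1 to 2.3 Mb from the left border, grey points are the other 2281 windows, and the line marks equal values. Most red points with few H3K27ac reads are above the line, while the red points within the main cloud lie on both sides of it.

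The single windows with the highest and lowest values were taken by rule among the 2392 windows averaging at least 20 scaled reads, 3 at each end of each measure. The highest H3K9me2 enrichment was at IV 5497073 to 5498072, with 250 reads of *met-2* H3K27ac and 23 of the *met-2* control, and in WT 832 reads of H3K9me2, 269 of H3K9me3, 159 of H3K27ac and 28 of the control. Its log2 value was 3.42 (3.08 to 4.22). The next was at IV 6252066 to 6253065, with 82 and 12 reads in the *met-2* libraries of H3K27ac and control, and in WT 885 reads of H3K9me2, 153 of H3K9me3, 59 of H3K27ac and 31 of the control. The other window of this set, at IV 5678072 to 5679071, had 340 and 26 reads in the *met-2* libraries of H3K27ac and control. In WT it had 1919 reads of H3K9me2, 497 of H3K9me3, 253 of H3K27ac and 74 of the control. H3K9me2 had the most reads in these 3 windows, also after scaling, and was above 0.5 over the *met-2* control in 3 of 3 (1.86 to 2.88).

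The highest H3K9me3 windows depended more on low control counts. The first, at IV 5427074 to 5428073, held 287 reads of *met-2* H3K27ac and 27 of the *met-2* control, against 476 reads of H3K9me3, 194 of H3K9me2, 85 of H3K27ac and 11 of the control in WT. Its log2 value was 3.44 (3.05 to 4.92) over the WT control and 0.59 over the *met-2* control. The second, at IV 6660062 to 6661061, held 211 and 16 reads in the *met-2* libraries of H3K27ac and control, and 243 of H3K9me3, 89 of H3K9me2, 92 of H3K27ac and 5 of the control in WT. It was also the window with the highest WT H3K27ac enrichment (2.88), and over the *met-2* control it was at 0.37 for H3K9me3 and 0.06 for H3K27ac. The other window of this set, at IV 6685062 to 6686061, held 11 and 7 reads in the *met-2* libraries of H3K27ac and control, and 104 of H3K9me3, 39 of H3K9me2, 14 of H3K27ac and 1 of the control in WT. Its log2 value was 2.85, with a counting interval of 2.66 to 10.49. Over the *met-2* control 1 of the 3 windows was above 0.5.

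The next highest WT H3K27ac windows had many reads of every mark. The window at IV 6004069 to 6005068 held 870 reads of *met-2* H3K27ac and 47 of the *met-2* control, against 899 reads of H3K9me3, 388 of H3K9me2, 416 of H3K27ac and 42 of the control in WT. That at IV 5176076 to 5177075 held 490 and 50 in the *met-2* libraries of H3K27ac and control, against 454 of H3K9me3, 205 of H3K9me2, 352 of H3K27ac and 35 of the control in WT. Both were at 2.71 for WT H3K27ac, and over the *met-2* control they were at 0.67 and 0.34.

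The highest *met-2* H3K27ac windows lacked control reads. The windows at IV 6763061 to 6764060 and IV 6307066 to 6308065 held 204 and 144 reads of *met-2* H3K27ac and 0 of the *met-2* control. With the control set to a floor of 3 reads they were 7.17-fold and 5.06-fold enriched, which is not a lower bound. The lower exact limits, from the counts alone, were 2.53 and 2.02 on the log2 scale, smaller enrichments than these folds. In WT the first held 224 reads of H3K9me3, 128 of H3K9me2, 113 of H3K27ac and 39 of the control, and the second 221, 142, 89 and 43. The window at IV 6950060 to 6951059 held 201 reads of *met-2* H3K27ac and 1 of the *met-2* control, a value of 3.37 (1.91 to 9.72), against 112 of H3K9me3, 70 of H3K9me2, 111 of H3K27ac and 19 of the control in WT. Over the WT control, *met-2* H3K27ac was above 0.5 in 2 of these 3 windows. The lowest values lay in windows with many control reads. The window at IV 6574063 to 6575062 held 345 reads of *met-2* H3K27ac and 38 of the *met-2* control, and in WT 509 reads of H3K9me3, 145 of H3K9me2, 217 of H3K27ac and 1066 of the control. It had the lowest H3K9me2 enrichment (-4.05). The window at IV 5772071 to 5773070 was among the 3 lowest for H3K9me3 (-2.69), H3K9me2 (-3.12) and WT H3K27ac (-3.64), with 18 and 5 reads in the *met-2* libraries of H3K27ac and control, and 85 of H3K9me3, 50 of H3K9me2, 18 of H3K27ac and 216 of the control in WT. With the *met-2* control in place of the WT control, H3K9me3 was at 0.47 there, H3K9me2 at 0.04 and WT H3K27ac at -0.48. Of the 3 lowest windows for each of these marks, 1 was below -0.5 over the *met-2* control.

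H3K27ac was finally compared between genotypes. H3K27ac reads were alike in both, with a Spearman correlation of 0.867 between *met-2* and WT over the windows of the cluster and 0.871 in the comparison interval. On scaled reads without the controls, H3K27ac was higher by more than 0.5 in *met-2* in 193 windows of the cluster (7.78%), against 3.61% between 7 Mb and 13 Mb and 7.16% of all windows. It was lower in 60 windows (2.42%), against 2.82% and 3.07%. The share of higher windows in the cluster was thus near that of the genome, and it was the comparison interval that fell below it. Right of 13 Mb the share was 16.3%. The median change was 0.05 in the cluster and -0.02 in the comparison interval, a difference of 0.07 (0.046 to 0.093).

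Over the control of each genotype the median change was negative. The change was above 0.5 in 640 windows (25.8%), against 23.6% in the comparison interval and 28.2% of all windows, and below -0.5 in 972 (39.2%), against 40.6% and 36.7%. The median was -0.22 in the cluster and -0.26 in the comparison interval. The sign of the median change thus differed with and without the controls, whose own difference had a median of 0.29 in the cluster. In each window the change over the controls is the change without them minus the difference between the controls. These measures therefore differ by the controls alone, and why the controls differ was not tested.

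By block, the change on scaled reads was above 0 in 19 of 25 blocks of 100 kb, between -0.11 at 4.7 to 4.8 Mb and 0.19 at 5.4 to 5.5 Mb. In 500 kb blocks it was 0.02 to 0.09 in the cluster, above the median of the comparison blocks in 5 of 5 and above the highest of them (0.10) in 0.

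The H3K27ac change was also split by the marks in WT, on scaled reads. This split was made in the cluster and the comparison interval only, so no share over all windows stands beside it. Of the 444 windows with H3K9me3 over both controls, 53 were higher in *met-2* (11.9%), against 140 of the other 2037 (6.87%), with median changes of 0.13 and 0.03. In the comparison interval the shares were 6.16% of 844 and 3.19% of 5117. For the change over the controls the order of the shares in the cluster was the opposite, with 23.4% of the 444 windows and 26.3% of the rest higher. The medians kept their order, at -0.0030 and -0.28, but the controls enter both the choice of these windows and this change. Of the 337 windows with H3K9me2 over both controls 13 were higher (3.86%), against 8.40% of the rest. In the comparison interval no such contrast was seen, with 3.65% of 821 windows and 3.599% of the rest higher. In the cluster the share was also low in the 367 windows with WT H3K27ac over both controls (3.54%, against 8.51% of the rest). The corresponding shares in the comparison interval were 1.93% and 3.98%. WT H3K27ac enters both the choice of these windows and the change, so a low share follows from the choice and is a description only.

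The 193 higher windows had a median of 155.4 scaled reads of H3K27ac in *met-2* and 97.0 in WT, against 165.6 and 157.9 in the 2228 windows that were neither higher nor lower. Their medians in WT were 134.5 scaled reads of H3K9me3 and 89.7 of H3K9me2, against 161.6 and 137.03 in those other windows. Both MNase controls were low in them too, with medians of 116.6 scaled reads in *met-2* and 70.5 in WT, against 150.9 and 116.8. The 193 windows were chosen by the H3K27ac change itself, so their H3K27ac levels are a description.

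The largest single increase was at IV 4905079 to 4906078, where H3K27ac had 138 reads in *met-2* and 31 in WT, with 10 reads in the *met-2* control and 42 in the WT control. This window held 146 reads of H3K9me3 and 149 of H3K9me2, and its change was 1.21 (0.80 to 1.98). At IV 4586082 to 4587081 H3K27ac had 253 reads in *met-2* and 63 in WT, a change of 1.15 (0.82 to 1.65), with 22 and 32 reads in the *met-2* and WT controls, 155 of H3K9me3 and 59 of H3K9me2. At IV 4950078 to 4951077 it had 232 in *met-2* and 58 in WT, a change of 1.13 (0.80 to 1.66), with 12 and 42 reads in the *met-2* and WT controls, 243 of H3K9me3 and 87 of H3K9me2. All 3 were within 500 kb of the left border. The share of higher windows was not raised there, at 6.91% from 4.5 Mb to 5 Mb, against 6.4% to 11.04% over the 5 blocks of 500 kb.

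The largest decrease was at IV 5459074 to 5460073, with 48 reads of H3K27ac in *met-2* and 65 in WT, and a change of -1.06 (-1.79 to -0.66). It was followed by IV 4714080 to 4715079, with 140 reads in *met-2* and 164 in WT and a change of -0.96.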

How the data were processed

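The authors deposited 1 table of raw read counts per window for the 6 ChIC-seq libraries. According to the labels and the methods, reads were trimmed with Trimmomatic 0.39 (submitters' processing notes), aligned to ce10 with Bowtie2, deduplicated with Bismark and counted in either orientation with QuasR. The windows were 1 kb wide, which is wider than the tiling that the methods describe. Whether the molecular identifier of the adaptor was used was not stated, and removal of duplicates can lower the highest counts.

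Libraries were taken from the sample titles. Following the methods, counts were scaled from each library total to the average total (16977530 reads), and log2 was taken of the scaled value plus 8. This pseudocount draws windows with few reads towards 0. Enrichment was the difference from the MNase control of that genotype, and the H3K27ac change was *met-2* minus WT, with and without the controls. The threshold was 0.5 on the log2 scale. Windows without reads were left out of medians and shares.

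Intervals of read ratios and of single windows are exact at 95% and cover counting error only. Those of single windows come from the counts without the pseudocount, and the printed value with the pseudocount can lie near their lower end. Intervals of shares (Wilson) treat windows as independent. The interval of a difference between medians runs between the extremes of the order-statistic intervals of both medians, and leaves out counting error and any difference between libraries. A floor of 3 reads was used. With 1 library per group no p-value was computed.

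Named windows were the 3 highest and 3 lowest of each of 5 measures among windows averaging at least 20 scaled reads. They were 30 by rule and 26 distinct. The interval, the measures and the lists were chosen with earlier results of these data known. No genome of the ce10 assembly was used, so no sequence is shown and windows were not assigned to genes. Alternatives were edgeR (4.0.16) TMM scaling, totals that leave out the mitochondrial genome and the top 1% of control windows, a pseudocount of 1, a filter at 20 scaled reads, 10 kb windows, a threshold of 1, the control of the other genotype, no control, an interval 250 kb narrower on each side, and other comparison intervals. Separate controls were used for the overlap. The cluster without 6.6 to 6.8 Mb was added after seeing the data. The scripts used Python 3.11.15, numpy 2.4.6, pandas 2.3.3 and SciPy 1.17.1, and were tested on simulated data.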

Additional observations from a re-analysis of the deposited data

How the results depend on the processing

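No paired analysis was possible because there was 1 library in every group. In all, 191 values of 20 results were recomputed, of which 143 stayed within the margin of the main value, 46 moved and 2 turned their direction, and the cause was not tested. The margin was the interval of the main value where it had one, and otherwise a fold range about it. For shares this range was wide. Under TMM scaling the H3K9me3 share of the cluster fell from 48.4% to 36.6% and that of WT H3K27ac from 44.6% to 33.3%. Both counted as within the margin. Changes of direction were in the median H3K9me3 difference between the cluster and the comparison interval, which was -0.046 with no control, and in that of WT H3K27ac, which was 0.070 against all other windows of the genome.

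Several values moved with the control. Over the control of the other genotype, 29.7% of the windows of the cluster were enriched for H3K9me3, 48.7% for *met-2* H3K27ac and 27.05% for WT H3K27ac, the H3K27ac change was higher in 45.2% and lower in 23.1%, and the H3K9me2 overlap with H3K9me3 was 65.4%. The cluster then differed from the comparison interval by 0.061 for H3K9me3, 0.016 for *met-2* H3K27ac and 0.13 for the change. With no control, 16.6% were above the threshold for H3K9me3, 19.9% for H3K9me2, 13.8% for *met-2* H3K27ac and 16.8% for WT H3K27ac, the overlap was 34.2%, and the median differences were -0.18 for H3K9me2, -0.14 for *met-2* H3K27ac and -0.25 for WT H3K27ac. Separate controls, with H3K9me2 over the *met-2* control and H3K9me3 over the WT control, gave an overlap of 42.4%.

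In 10 kb windows the shares were 31.2% for H3K9me3, 19.2% for H3K9me2, 5.2% for *met-2* H3K27ac and 22.4% for WT H3K27ac, the change was higher in 6.8% and lower in 20.4% over the controls and higher in 0.40% and lower in 0% without them, the difference between controls was higher in 26% and lower in 7.2%, and the overlap was 72.9%. At a threshold of 1 the shares were 27.6%, 18.9%, 12.9% and 24.2% in the same order, the change 12.9% and 22.3% over the controls and 0.322% and 0.0403% without them, the controls 23.7% and 12.3%, and the overlap 66.1%.

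Against all other windows, the median differences were 0.037 for H3K9me2, -0.081 for the change over controls, 0.035 for the change without them and 0.094 for the H3K9me3 over H3K27ac ratio. That ratio differed by 0.25 in the narrower interval. TMM scaling shifted the median of all windows by -0.28 for H3K9me3 and WT H3K27ac, -0.16 for H3K9me2, -0.19 for the difference between controls and 0.18 for the change over controls. Of the called windows of the cluster it left 59.9% higher for H3K9me3 (74.0% by totals), 53.8% for H3K9me2 (64.1%) and 55.7% for WT H3K27ac (70.6%), with an overlap of 71.4%. A pseudocount of 1, the filter at 20 scaled reads, the trimmed totals and the cluster without 6.6 to 6.8 Mb moved none of the 20 results. The *met-2* control, with a median of 21 reads per window in the cluster, limits every value over it.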
